A study of Homo sapiens with 3 samples.

Results

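The genes described here are those of the Notch pathway, from ligand and receptor to the gamma-secretase protease and the transcription factors it feeds, in untreated HEK293T cells. They were a list of 41 named gene symbols, set by a rule that uses no measured value, of 35880 symbols in the deposited table, and all 41 were found there. HEK293T is an established line of human embryonic kidney origin that expresses the large T antigen of SV40. Cells were grown in high-glucose medium with serum, received no treatment, and gave 3 oligo-dT RNA-seq libraries labelled as biological replicates. The labels do not state whether each came from its own culture, and the p-values therefore cover only the variation among these libraries.

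Notch receptors are single-pass membrane proteins that are switched on by ligands on a neighbouring cell. A bound receptor is cut first by an ADAM sheddase and then within the membrane by gamma-secretase, which frees an intracellular domain that enters the nucleus. There the domain joins the DNA-binding protein RBPJ and a Mastermind coactivator and turns on HES and HEY genes, which encode repressors of transcription.

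Levels are in TPM, transcripts of a gene scaled to a fixed total in each library, a measure per length of transcript, added over all transcripts of a symbol. A gene was called above or below 1 TPM when limma's moderated test of log2(TPM + 0.01) gave a Benjamini-Hochberg adjusted p under 0.05 over the 21990 genes above 0 in at least 1 library. Of the 41 members, 40 passed that filter, 30 were called above 1 TPM, 4 below, 6 were undecided and HES3 was listed at 0 in all 3 libraries. The 30 members called above were 75.0% of the 40 tested, against 58.5% of all genes tested and 70.7% of protein-coding genes tested, so their share lay close to that of coding genes. The 4 called below stood against 33.9% of all genes tested and 23.7% of protein-coding genes. The tested members had a median level of 11.8 TPM, against 4.29 TPM for all genes tested and 10.8 TPM for protein-coding genes. Their median coefficient of variation (CV) over the 3 libraries was 6.59%, against 10.0% for all genes tested and 6.48% for coding genes. A level in bulk RNA is a mean over cells, so fewer expressing cells and less RNA per cell cannot be told apart.

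**Figure D1:**
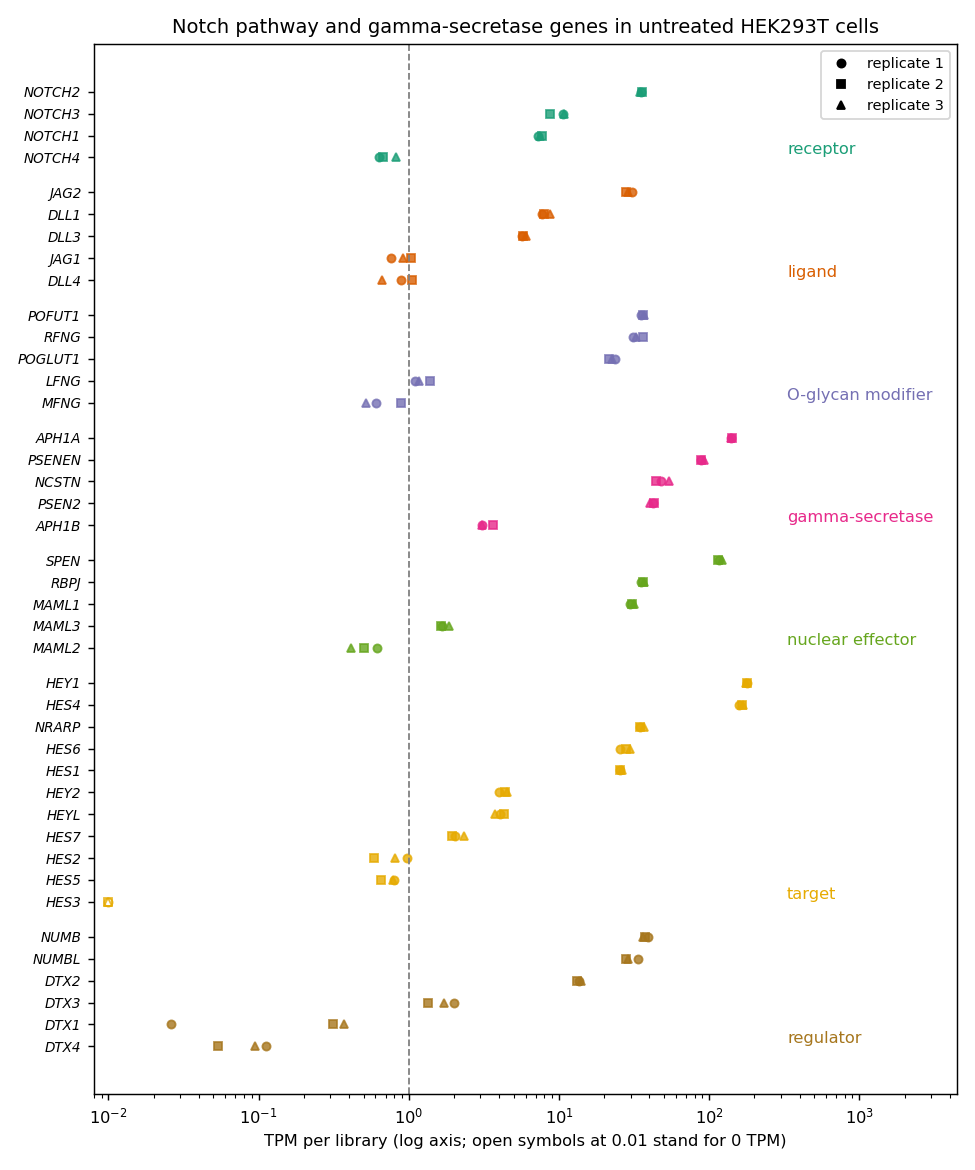
Level of each of the 41 genes in TPM (log axis) in each of 3 untreated HEK293T libraries, grouped by role, with a dashed line at 1 TPM. HEY1, HES4, APH1A and SPEN had over 100 TPM in every library, and the points of most genes above 1 TPM lie almost on top of each other.

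All 7 genes taken as markers of HEK293T cells were above 1 TPM, with means between 24.2 TPM for CDH2 and 401 TPM for VIM. They were chosen as high in earlier work, with earlier results of these data known, so their count is no test of identity. Of all genes tested 58.5%, and of protein-coding genes tested 70.7%, were called above 1 TPM. Of 13 markers of endothelium, blood, hepatocytes, kidney tubule and skeletal muscle, none was called above 1 TPM and 5 were at 0, among them CD3E, UMOD and AQP2. Their summed levels were at most 1.18 TPM for a cell type, that of blood. The deposited estimated counts matched replicate 1 and summed to 33184885, which is the depth behind its values.

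NOTCH2 was the most abundant receptor transcript and held 65.9% ± 1.61 of the summed TPM of the 4 receptors (SD, n = 3). Its gene lies on chromosome 1 (chr1:119911553-120069626, minus strand, hg38, GENCODE release 29). NOTCH2 had 35.3, 35.8 and 34.5 TPM in replicates 1, 2 and 3. NOTCH3, the receptor known from smooth muscle of small arteries, had 10.6, 8.75 and 10.8 TPM. NOTCH1, the receptor known for its part in T cell development and leukaemia, had 7.29, 7.71 and 7.42 TPM. Summed over transcripts, the 3 receptors kept this order in every library without overlap, and NOTCH3 was lower in replicate 2 than in the others. The leading coding transcript of NOTCH3 had 6.039, 6.544 and 6.705 TPM, with replicate 1 the lowest. It lay below the leading coding transcript of NOTCH1 in every library (6.502, 6.711 and 6.849 TPM). The order of NOTCH3 over NOTCH1, and the lower NOTCH3 sum in replicate 2, therefore rested on other listed transcripts of NOTCH3. NOTCH2 was 4.71-fold higher than NOTCH1 and 3.52-fold higher than NOTCH3 on average, log2 differences of 2.24 ± 0.03 and 1.81 ± 0.19 (SD, n = 3).

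NOTCH4, the receptor known from endothelium, had 0.637, 0.671 and 0.825 TPM, resting on 34.7 estimated counts in replicate 1. All 3 values were under 1 TPM, and the call of below was at the edge of the threshold (log2 difference -0.49, SE 0.17, adjusted p = 0.0469). The call ended when any single library was left out, with adjusted p of 0.125, 0.123 and 0.0609 without replicates 1, 2 and 3. The endothelial markers PECAM1, CDH5 and KDR summed to 0.377 TPM, and their part in this level was not tested. Of the 33 NOTCH4 transcripts in the table, 28 were not in GENCODE release 29, the annotation used here, and a set of 7 copies of 1632 bases with equal values held 50.5% of its TPM. The NOTCH2 level carries a different uncertainty: 26.4% of the 31-base words of its transcripts also occurred in transcripts of other symbols, most of them in NBPF19, at 44.5 TPM. NOTCH2NL, a partial copy of NOTCH2, had 32.0, 23.6 and 23.2 TPM and was higher in replicate 1 than in the others, which NOTCH2 was not.

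JAG2 was the leading ligand and held 64.9% ± 1.76 of the summed TPM of the 5 canonical ligands (SD, n = 3). JAG2 (chr14:105140981-105168824, minus strand) had 30.4, 27.9 and 28.9 TPM. DLL1 (chr6:170282206-170306565, minus strand), which encodes a Delta-like activating ligand, had 7.71, 7.98 and 8.65 TPM. DLL3, whose protein acts mainly within its own cell and does not activate receptors on neighbours, had 5.66, 5.79 and 6.01 TPM. These 3 ligands were called above 1 TPM, and their ranges did not overlap. A pair of equal 548-base DLL1 transcripts held 42.6% of its TPM, but each had only 4.15% of its estimated counts. The equal DLL1 transcripts of 3174 bases, each at 2.15, 2.39 and 2.45 TPM, lay together under DLL3 in every library. The order of DLL1 over DLL3 therefore rested on the short transcripts. JAG1, the ligand mutated in Alagille syndrome, had 0.763, 1.03 and 0.908 TPM, and DLL4, the ligand known from vessel sprouting, had 0.884, 1.05 and 0.662 TPM. Both straddled 1 TPM, were undecided (adjusted p = 0.383 and 0.298) and overlapped each other, and DLL4 turned to below on coding transcripts only (adjusted p = 0.0126). JAG1 was lower than JAG2 by a log2 difference of -5.01 ± 0.28 and lower than DLL1 by -3.17 ± 0.20 (SD, n = 3).

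Of the enzymes that place O-linked sugars on the EGF-like repeats of Notch, POFUT1, POGLUT1 and RFNG were called above 1 TPM. POFUT1, which adds O-fucose, had 34.9, 36.2 and 37.1 TPM. POGLUT1, which adds O-glucose, had 23.6, 21.6 and 22.6 TPM and lay below POFUT1 in every library, by a log2 difference of -0.68 ± 0.09 (SD, n = 3). The fringe genes encode enzymes that extend O-fucose and thereby shift which ligands a receptor answers to. Among them RFNG held 94.7% ± 0.525 of the summed TPM, with 31.3, 36.2 and 32.6 TPM, and was highest in replicate 2. The leading coding transcript of RFNG had 15.53, 15.45 and 16.48 TPM, with replicate 3 the highest. The higher RFNG sum in replicate 2 therefore came from other listed transcripts. LFNG had 1.09, 1.39 and 1.16 TPM and MFNG had 0.601, 0.882 and 0.522 TPM, so that LFNG was above 1 TPM and MFNG under it in every library, yet neither passed the test (adjusted p = 0.121 and 0.0531). Only 11 estimated counts lay behind MFNG in replicate 1, and its call turned to below in several settings, among them without replicate 2 (adjusted p = 0.0362) and on coding transcripts only (adjusted p = 0.00210).

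All 5 gamma-secretase genes on the list were called above 1 TPM, and together they summed to 323 TPM. APH1A, which encodes the scaffold subunit, led with 139, 143 and 139 TPM and held 43.3% ± 1.01 of that sum. PSENEN, the small subunit that completes the complex, had 87.8, 88.2 and 92.5 TPM. NCSTN, nicastrin, the subunit that gates access of substrates, had 48.1, 44.6 and 53.7 TPM, with replicate 3 the highest. Its leading coding transcript held 91.3% of its estimated counts and had 33.8, 32.9 and 30.2 TPM, with replicate 3 the lowest. The higher sum in replicate 3 therefore came from other listed transcripts of NCSTN. PSEN2, a presenilin and so a catalytic subunit, had 42.3, 43.0 and 40.2 TPM, below NCSTN in each library. APH1B, the paralogue of APH1A, had 3.06, 3.62 and 3.09 TPM. The 5 genes did not overlap in range, and the mean ratio of APH1A to APH1B was 43.0-fold, a log2 difference of 5.43 ± 0.11 (SD, n = 3). PSENEN was 1.84-fold and APH1A 2.88-fold higher than NCSTN, while PSEN2 differed from NCSTN by a log2 difference of -0.22 ± 0.19. The PSENEN level is uncertain, because 15.8% of its 31-base words also occurred in other symbols, most of them in AD000671.1, a symbol at 2.05 TPM.

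APH1A (chr1:150265399-150269580, minus strand) was carried mainly by a pair of protein-coding transcripts that differ in length of the reading frame. The form of 247 codons held 54.4%, 56.1% and 57.4% of the gene's TPM in replicates 1, 2 and 3. The form of 265 codons held 37.8%, 35.2% and 31.6%. The shorter form was higher in every library, and the ranges did not overlap.

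Among the genes that act in the nucleus, SPEN was highest. SPEN (chr1:15847864-15940460, plus strand), a large corepressor that binds RBPJ, had 116, 115 and 121 TPM. RBPJ (chr4:26163455-26435131, plus strand), the DNA-binding protein of the pathway, had 35.1, 36.1 and 37.0 TPM. MAML1, a Mastermind coactivator, had 29.6, 30.8 and 31.6 TPM. RBPJ lay just above MAML1 in each library, by a log2 difference of 0.23 ± 0.01 (SD, n = 3), the smallest spread of any of the 25 pairs compared. MAML1 held 93.2% ± 0.324 of the summed TPM of the MAML genes. MAML3 had 1.66, 1.63 and 1.85 TPM and was above 1 TPM (adjusted p = 0.00220). MAML2, known from fusions in salivary gland tumours, had 0.617, 0.506 and 0.410 TPM and was called below 1 TPM (log2 difference -0.97, SE 0.22, adjusted p = 0.0114). Its call ended when genes at 0 were kept in the fit (adjusted p = 0.079).

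**Figure D2:**
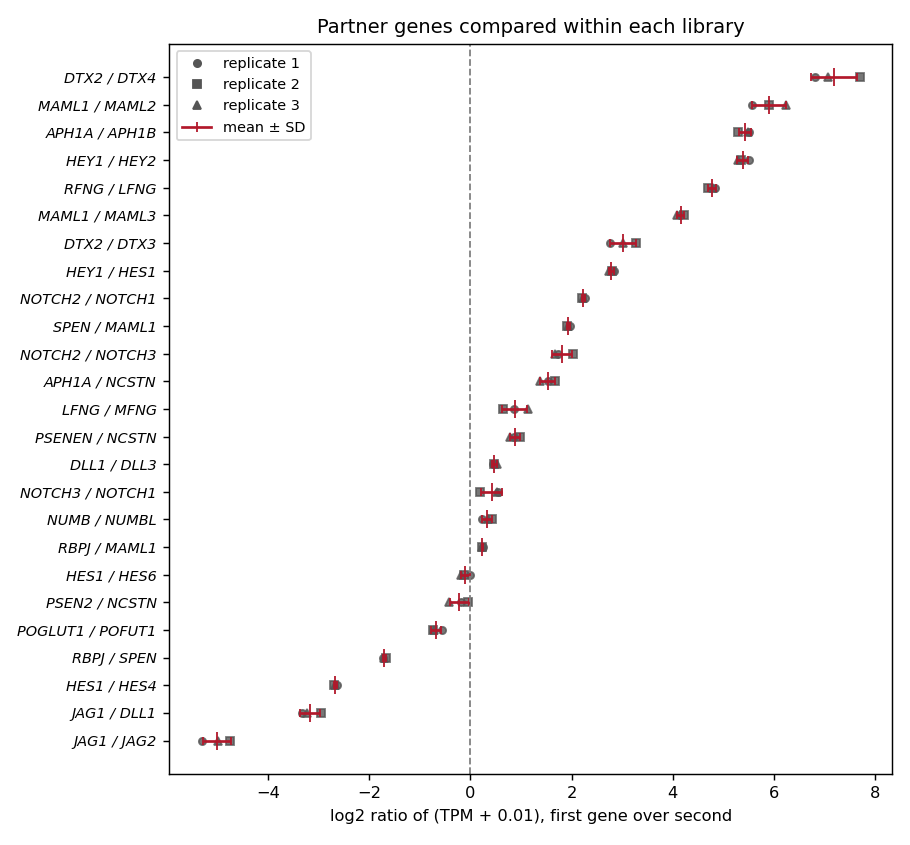
Log2 ratio of (TPM + 0.01) between partner genes within each of 3 libraries, first gene over second, with the mean and SD in red. The ratio of HES1 to HES6 (-0.10 ± 0.09) was that of the only pair whose TPM ranges overlapped, while MAML1 over MAML2 was 5.90 ± 0.33 and JAG1 over JAG2 -5.01 ± 0.28.

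The genes grouped here as targets, the listed HES and HEY genes and NRARP, covered the widest range of levels, from 0 to 178 TPM. Whether each of them answers to Notch in these cells was not tested. HEY1 (chr8:79764010-79767863, minus strand), a repressor of the hairy and enhancer of split family, was the highest of all 41 members with 180.0, 178 and 176 TPM. HES4 (chr1:998962-1000172, minus strand) followed with 157, 166 and 169 TPM. HEY1 and HES4 did not overlap, and HEY1 alone held 43.7% ± 1.25 of the summed TPM of the 10 HES and HEY genes (SD, n = 3). HES1 (chr3:194136145-194138732, plus strand), a widely studied target of Notch signalling, had 25.3, 25.6 and 26.4 TPM. HES6, whose protein is known to oppose HES1, had 25.4, 28.0 and 29.8 TPM. HES1 and HES6 overlapped, since HES6 in replicate 1 lay within the range of HES1. NRARP, a feedback inhibitor that destabilises the Notch intracellular domain, had 34.6, 34.8 and 37.0 TPM and lay above both. HEY1 was 6.91-fold higher than HES1, and HES4 was 6.36-fold higher than HES1. Without transcripts annotated as non-coding, a setting chosen after seeing the data, HES1 over HES4 was -2.10 on the log2 scale, against -2.67. HEY1 over HES1 was then 2.70, against 2.79.

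The other targets were low. HEY2 had 3.97, 4.39 and 4.48 TPM and HEYL had 4.06, 4.31 and 3.73 TPM, and these overlapped. HEY1 was 41.6-fold higher than HEY2, a log2 difference of 5.38 ± 0.11 (SD, n = 3). HES7, the oscillating gene of the somite clock, had 2.02, 1.95 and 2.33 TPM and was called above 1 TPM (adjusted p = 0.000679). HES2 had 0.976, 0.583 and 0.813 TPM and HES5, a target known from neural progenitors, had 0.799, 0.657 and 0.784 TPM. Both stayed under 1 TPM in every library and overlapped, and neither passed the test (adjusted p = 0.158 and 0.0616). HES5 turned to below in several settings, among them a pseudocount of 1 (adjusted p = 0.022) and a fit without a mean-variance trend (adjusted p = 0.0217). HES3 was listed at 0, which with 3 counts as the limit allowed up to 0.261 TPM in replicate 1 (counting error only).

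The targets differ in whether the letters of the RBPJ motif stand in front of them. GTGGGAA was searched on both strands of the 250 bases before each RefSeq gene start on GRCh38.p14. It was found in 5.43% of 35116 such windows and in those of 6 of the 34 members that had any. RBPJ itself had it in 1 of its 5 windows, and the others were HES1, HES4, HES5, HEY2 and HEYL, which are 5 of 10 target genes with a window. The shorter TGGGAA, which every GTGGGAA contains, stood in 20.8% of all windows and in those of 11 of the 34 members. For both motifs the share of all windows counts windows, while members are counted as genes, which may have several windows. These shares are therefore not like for like. The windows of HES4, HES1 and HES5 are shown because they hold the motif at nearly the same distance from the start, 77, 85 and 81 bases, while the genes lay at 164, 25.8 and 0.747 TPM. Capitals mark GTGGGAA, or TTCCCAC where the match is on the other strand, and each window is written along the strand of its gene and ends just before the RefSeq start.
HES4, chr1:1000098-1000347, minus strand: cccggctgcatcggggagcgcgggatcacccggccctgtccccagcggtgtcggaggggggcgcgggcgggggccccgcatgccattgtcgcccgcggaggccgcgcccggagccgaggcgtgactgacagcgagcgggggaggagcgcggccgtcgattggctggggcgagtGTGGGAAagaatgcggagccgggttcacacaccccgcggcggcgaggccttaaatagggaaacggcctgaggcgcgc
HES1, chr3:194135898-194136147, plus strand: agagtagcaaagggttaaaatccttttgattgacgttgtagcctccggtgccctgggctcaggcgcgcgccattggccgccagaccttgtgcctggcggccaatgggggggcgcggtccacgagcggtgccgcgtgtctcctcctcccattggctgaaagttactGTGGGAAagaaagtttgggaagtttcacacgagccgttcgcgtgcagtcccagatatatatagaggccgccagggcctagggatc
HES5, chr1:2530264-2530513, minus strand: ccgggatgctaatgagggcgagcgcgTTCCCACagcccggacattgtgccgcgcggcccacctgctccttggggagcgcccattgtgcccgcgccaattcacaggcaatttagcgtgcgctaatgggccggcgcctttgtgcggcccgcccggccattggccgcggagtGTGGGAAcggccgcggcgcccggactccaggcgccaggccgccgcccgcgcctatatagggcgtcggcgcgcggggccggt
HES5 had a further match, in reverse, 224 bases before its start. HEY2 and HEYL had 1 match each, also in reverse, 213 and 178 bases before the start. GTGGGAA was not in the windows of HES6, HES7 and NRARP, at 27.7, 2.10 and 35.5 TPM, nor in those of HES2 and HES3. HEY1 had no window and was not searched. The start of the leading transcript lay within 18 bases of the RefSeq start for HES4, HES1 and HES5. It lay 52 bases away for HEY2, 302 bases away for HEYL and 42690 bases away for the RBPJ window with the motif. In HEYL the match is downstream of the start of its only transcript.

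Among the 6 listed regulators, the NUMB and deltex genes, NUMB and its paralogue were the highest. NUMB (chr14:73275107-73458617, minus strand), an endocytic adaptor that inhibits Notch, had 39.4, 37.6 and 36.5 TPM. NUMBL had 33.5, 27.9 and 28.7 TPM, with replicate 1 the highest, and its range stayed below that of NUMB. The leading coding transcript of NUMBL held 66.6% of its estimated counts and had 9.68, 10.0 and 9.16 TPM, with replicate 2 the highest. The higher NUMBL sum in replicate 1 therefore came from other listed transcripts. The deltex genes encode ubiquitin ligases that bind Notch, and DTX2 held 87.1% ± 1.18 of their summed TPM with 13.7, 13.1 and 14.0 TPM. Its near copy DTX2P1, at 1.32 TPM, shared 19.5% of the 31-base words of DTX2. DTX3 had 2.01, 1.34 and 1.72 TPM and was called above 1 TPM (adjusted p = 0.00942), a call that ended without replicate 1 (adjusted p = 0.05, just past the threshold) or replicate 3 (adjusted p = 0.0515). DTX4 was the lowest member above 0, with 0.113, 0.0535 and 0.0949 TPM, and was called below (adjusted p = 0.00144). DTX1 had 0.0260, 0.314 and 0.370 TPM, of which the value in replicate 1 rested on 2 estimated counts. It too was called below (log2 difference -2.62, SE 0.81, adjusted p = 0.0331), and the call ended without replicate 2 (adjusted p = 0.0851) or replicate 3 (adjusted p = 0.0617).

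NUMB transcripts differ mainly by a pair of exons that are skipped or kept. The exon of 33 bases encodes 11 residues within the phosphotyrosine-binding domain, and the exon of 144 bases encodes 48 residues of the proline-rich region. Both are shown because the forms of the protein turn on them, written along the minus strand of the gene from GENCODE release 29 transcripts.
NUMB exon of 33 bases, chr14:73316390-73316422: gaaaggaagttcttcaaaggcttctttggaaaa
NUMB exon of 144 bases, chr14:73279281-73279424: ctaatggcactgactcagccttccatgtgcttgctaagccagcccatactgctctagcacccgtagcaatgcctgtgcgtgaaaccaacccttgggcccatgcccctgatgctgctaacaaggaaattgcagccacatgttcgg
Of the TPM of transcripts that span its place, the 33-base exon was kept in 51.0%, 56.1% and 54.4% in replicates 1, 2 and 3, a mean of 53.8% ± 2.62 (SD, n = 3). The 144-base exon was kept in 59.0%, 56.7% and 55.5%, a mean of 57.1% ± 1.76. By estimated counts in replicate 1, 43.6% of the spanning reads lay in transcripts with the 33-base exon and 62.0% in those with the 144-base exon. Over the full-length coding forms alone, the 33-base exon was in 43.6%, 49.4% and 48.8% of the TPM. The 33-base exon was therefore above or below 50% depending on the measure, while the 144-base exon was above it in each. A further exon that can be skipped, of 294 bases, was kept in 97.5% ± 0.890, and the forms below all keep it. Forms that kept exactly 1 of the exons made up most of the full-length coding TPM. The form of 640 codons, with the 144-base exon alone, held 46.9%, 43.9% and 42.1%. The form of 603 codons, with the 33-base exon alone, held 30.7%, 36.3% and 35.5%. The ranges of these forms did not overlap, and the 651-codon form with both exons (13.1% ± 0.216) and the 592-codon form with neither (8.45% ± 1.49) were lower. These shares are kallisto's assignment of short reads to listed transcripts, and no read across an exon junction was counted here. The most abundant single NUMB transcript was not the same in every library: a 640-codon transcript led in replicate 1 and a 603-codon transcript in replicates 2 and 3.

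**Figure D3:**
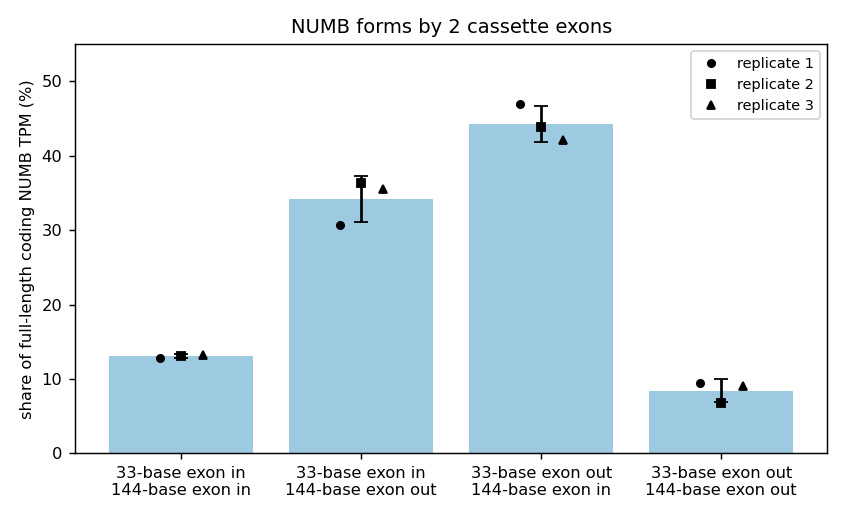
Share of full-length coding NUMB TPM (percent) held by the 4 combinations of the 33-base and the 144-base exon, with bars for the mean, error bars for the SD and a point for each of 3 libraries. The forms that keep exactly 1 exon (44.3% ± 2.44 and 34.2% ± 3.04) stand well above those that keep both or neither.

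Which transcripts carried a member's TPM mattered for several levels. Of 23 members with a mean of at least 5 TPM and more than 1 transcript, 21 had the same leading transcript in all 3 libraries, and in 20 of these it was annotated as protein coding. The exceptions were NUMB and HES4, where a retained-intron transcript and a coding transcript of 221 codons each held between 34.5% and 39.6% of the TPM. Transcripts annotated as coding held over 80% of TPM in 14 of 24 members of at least 5 TPM, and over 80% of the estimated counts in 18 of them. TPM divides reads by transcript length, so a read on a short fragment adds more TPM than a read on a long transcript.

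Among the ligands, the short DLL1 transcripts described above showed this, and so did JAG2. Retained-intron transcripts held 57.5% ± 3.23 of its TPM but 24.4% of its estimated counts, and its coding transcripts alone had 12.3 TPM. SPEN had 41.2% ± 0.845 of its TPM, but 4.13% of its estimated counts, in processed transcripts of 543 and 1404 bases, and 69.0 TPM in coding ones, of which the leading one has 12232 bases. RFNG had a retained-intron share of 45.1% ± 2.05 of TPM and 51.5% of counts, so in RFNG both measures gave a large share. POGLUT1 had 40.1% ± 6.76 of its TPM in transcripts marked for nonsense-mediated decay and 38.1% ± 1.71 in coding ones (SD, n = 3), with ranges that overlapped. Of its estimated counts, 21.5% lay in transcripts marked for decay and 68.6% in coding ones. In 6 of 25 pairs, leaving out transcripts annotated as non-coding, a setting chosen after seeing the data, moved the ratio by over 1.5 times, and it turned no sign. On the log2 scale JAG1 over JAG2 became -3.86, against -5.01 with all transcripts, and POGLUT1 over POFUT1 became -1.80, against -0.68. SPEN over MAML1 became 1.18, against 1.94, and RBPJ over SPEN -1.08, against -1.70. RFNG over LFNG became 3.89, against 4.77, and LFNG over MFNG 1.57, against 0.88. JAG2 then held 44.4% of the ligand TPM and was still the highest ligand.

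The MAML1 level rested on a transcript of 5723 bases that is not in GENCODE release 29 and held 98.2% ± 0.529 of the gene's TPM. An annotated coding transcript of the same length was listed at 0. DLL1 had equal values for pairs of copies, 1 in the annotation and 1 not, so that each kind held 50% of its TPM. Restricting MAML1 or DLL1 to annotated coding transcripts would therefore remove their TPM in whole or in part.

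**Figure D4:**
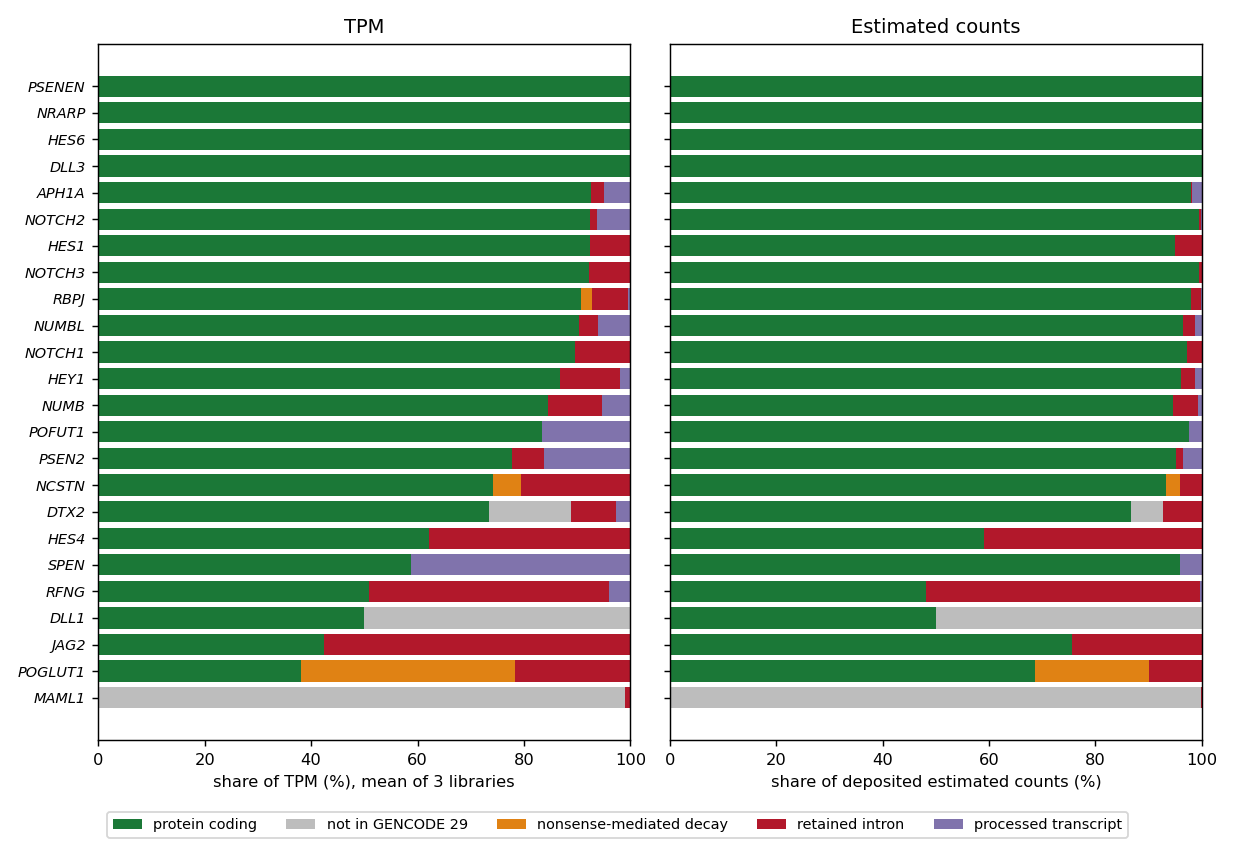
Share of each gene's TPM (left, mean of 3 libraries) and of its deposited estimated counts (right) by annotated transcript type, in percent, for the 24 members with a mean of at least 5 TPM. JAG2 and SPEN have far larger non-coding shares of TPM (57.5% and 41.2%) than of counts (24.4% and 4.13%), RFNG and HES4 have large ones on both sides, and MAML1 lies almost wholly in a transcript that is not in the annotation.

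Levels of neighbouring members within each role were mostly separated by more than the spread between libraries. Of 34 neighbours in the order of levels, 28 did not overlap and 6 did. The 6 were JAG1 and DLL4, POFUT1 and RFNG, HES6 and HES1, HEY2 and HEYL, HES2 and HES5, and DTX1 and DTX4. No like count for other sets of genes is given here, so this count does not set the members apart. Ratios between members were described without a test, and an exact sign-flip test over 3 libraries cannot go below p = 0.25 (two-sided). Of the 30 members above 1 TPM, 19 had a CV under the median CV of all genes in the same band of level. The like share of all genes called above 1 TPM is not given here, so the 19 are not read as a trait of the members. HEY1 had the lowest CV, 1.16%, against a band median of 1.95%, and DTX1 the highest, 78.0%, against 40.6%. NOTCH3, at 11.3%, NUMBL, at 10.0%, and NCSTN, at 9.41%, were more variable than the median of 3.83% for genes between 10 and 100 TPM.

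Of 37 further pathway genes taken from a list of known partners, 34 were called above 1 TPM, 1 below and 1 undecided, and 1 was at 0. The 34 were 94.4% of those tested, against the 58.5% of all genes and 70.7% of coding genes given above, and the list had been drawn up with earlier results of these data known. The sheddase ADAM10 led the proteases with 43.4, 42.2 and 43.0 TPM, and ADAM17 was lowest of the 3 with 14.6, 14.9 and 14.6 TPM. The ubiquitin ligase MIB1, which drives ligand endocytosis, had 28.4, 30.3 and 27.1 TPM, whereas NEURL1 had 1.40, 2.29 and 1.05 TPM and was undecided (adjusted p = 0.0807). All 8 genes of receptor turnover were above 1 TPM, from NEDD4L, a ubiquitin ligase, with 10.7, 9.77 and 10.8 TPM to CCNC, cyclin C, with 90.2, 92.2 and 81.9 TPM. All 3 xylosyl-extension genes were above, from GXYLT2 with 9.19, 9.07 and 7.71 TPM to XXYLT1 with 16.9, 17.4 and 17.1 TPM. The highest of the 11 corepressor genes was the histone deacetylase HDAC1 with 344, 340.4 and 331 TPM, and the lowest TLE2 with 5.16, 5.31 and 5.75 TPM. The 5 coactivator genes ran from KAT2B, a histone acetyltransferase, with 7.20, 7.26 and 8.67 TPM to SNW1 with 91.6, 82.6 and 84.5 TPM. All of these corepressor and coactivator genes were called above 1 TPM. The noncanonical ligands were the exception: DLK1 was listed at 0, DNER had 0.0415, 0.0408 and 0.0137 TPM and was below (adjusted p = 0.00121), and DLK2 had 4.08, 4.17 and 3.92 TPM.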

How the data were processed

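RNA of 3 untreated HEK293T libraries of 1 group was selected by oligo-dT capture and sequenced from strand-preserving libraries, per the labels' protocols. Transcripts were quantified with kallisto on hg38, per the submitters' processing notes. Its version, strand setting and transcripts' release are not given in the sources used here. Per transcript, the authors deposited TPM for each library, scaled within each library, and their own mean TPM, per the file headers. A deposited column of estimated counts names no library. After division by the deposited effective length, in bases, it matched replicate 1 in TPM to a relative 1.08e-05, and it was used only to show the reads behind replicate 1. Depths of the other libraries are unknown, since TPM keeps none.

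TPM was summed by gene symbol. Levels were tested against 1 TPM on log2(TPM + 0.01), which understates differences of low genes, with limma 3.58.1 in R 4.3.3 (moderated one-sample test with a mean-variance trend, Benjamini-Hochberg adjustment), fitted over all 21990 genes above 0 in at least 1 library. Ratios, family shares and transcript shares were described by mean and SD, with no test. Transcript types and gene positions came from GENCODE release 29, which matched 90.4% of transcripts and 96.9% of replicate 1 TPM and may not be the authors' release. Shared sequence is the percent of 31-base words on the transcript strand that also occur in another symbol, over transcripts in that annotation. Promoter windows came from RefSeq (GRCh38.p14), which matched 34 of the 41 members. Scripts ran in Python 3.11.15. The fit was also run on simulated data with set levels, and its outcome is not given here. Those reads were drawn per gene, without the error of assigning reads to transcripts.

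The rule for the members uses no measured value, but the members, further genes, pairs and markers were all proposed with earlier results of these data known. Named with every library's value were members of at least 1 TPM, undecided members, the highest and lowest of each role, and the highest and lowest further gene of each group. Alternatives were other pseudocounts (0.001, 0.1 and 1), levels (0.5 and 2 TPM), scalings, filters, transcript sets and leaving out each replicate.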

Additional observations from a re-analysis of the deposited data

How the results depend on the processing

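Without replicates 1, 2 and 3 in turn, 29 to 30 members were above 1 TPM, 2 to 3 below and 7 to 9 undecided, against 30, 4 and 6 with all libraries. With the same libraries left out, further genes had 34 to 35 above, 1 below and 0 to 1 undecided. Counts of members below were 1 against 0.5 TPM, 10 against 2 TPM, 2 with genes at 0 kept and 7 without non-coding transcripts. Undecided members numbered 3 against 2 TPM, on coding transcripts only and without non-coding transcripts. Further genes below were 0 with a mean of at least 0.1 TPM and 2 with genes at 0 kept, and undecided ones 0 against 0.5 TPM and 2 against 2 TPM.

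Against 0.5 TPM the log2 difference turned positive for NOTCH4 (0.49), JAG1 (0.83), DLL4 (0.75), MFNG (0.38), MAML2 (0.012), HES2 (0.62) and HES5 (0.56). Against 2 TPM it turned negative for LFNG (-0.72), MAML3 (-0.22) and DTX3 (-0.26), by construction of the level. On annotated coding transcripts only, DLL1 over DLL3 became -0.52, MAML1 over MAML2 -5.68 and MAML1 over MAML3 -7.43, since their main or duplicate transcripts are not in the annotation. Shares on coding transcripts only, and without non-coding ones, became 52.0% and 44.4% for JAG2, 44.7% in both for APH1A, 91.8% in both for RFNG, and 48.4% in both for HEY1. DTX2 held 84.5% and MAML1 0% on coding transcripts only. Leaving out a replicate gave 63.9% to 65.5% for JAG2, 65.0% to 66.6% for NOTCH2, 42.8% to 43.8% for APH1A, 94.5% to 95.0% for RFNG, 93.1% to 93.4% for MAML1, 43.0% to 44.3% for HEY1 and 86.5% to 87.5% for DTX2. The call of NOTCH4 was also lost with genes at 0 kept (adjusted p = 0.129) and without mitochondrially encoded genes (adjusted p = 0.0838), and that of DTX1 with genes at 0 kept (adjusted p = 0.115) and with no trend (adjusted p = 0.0831). Median-of-ratios and upper-quartile scaling changed no member's call. No paired analysis was possible because the series holds 1 group.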

Other observations

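Some further pathway genes differed between libraries by more than most members did, and these were picked after their values were seen. CREBBP, a histone acetyltransferase and coactivator, had 42.6, 28.9 and 32.6 TPM in replicates 1, 2 and 3, so that replicate 1 stood above the others. TLE3, a Groucho corepressor, had 63.0, 49.4 and 63.3 TPM, with replicate 2 the lowest. Its relatives TLE1 and TLE4 had 40.4 ± 1.18 and 57.4 ± 2.78 TPM (SD, n = 3), and neither was lowest in replicate 2.

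HEY1 was carried by a pair of coding transcripts that differ by 4 codons. The 304-codon transcript held 72.7%, 68.3% and 70.6% of its TPM in replicates 1, 2 and 3, and the 308-codon transcript held 10.4%, 14.0% and 11.0%, without overlap.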
